A study of Mus musculus with 2 samples.

Results

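The miR-26, miR-101 and miR-148 (with miR-152) families were examined in microvesicles (MVs), the small membrane vesicles that cells release. They were chosen by name. An entry of the deposited values was a member if any of its names had the stem miR-26a, miR-26b, miR-101a, miR-101b, miR-101c, miR-148a, miR-148b or miR-152, and 11 of the 831 entries were members. The MVs were released by bone marrow mesenchymal stem cells (MSCs) of 4-week-old male C57BL/6 mice at passage 3. For 48 h both cultures were grown in DMEM/F12 containing penicillin/streptomycin and 10% serum of fetal calves, a source of vesicles of its own. EPO-MVs came from MSCs given erythropoietin (EPO), the hormone that drives red blood cell formation. The dose is taken as 100 IU/ml from the amount of EPO that the paper calls optimal, since it does not state the dose for the array. MSC-MVs came from MSCs without EPO. RNA of each was read on 1 miRCURY LNA Array, whose capture probes hold locked nucleic acids that bind short RNAs tightly. With 1 array per group there was no replicate and no test. Every difference given here is a difference between a pair of arrays, and array and EPO cannot be told apart as its source.

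MicroRNAs (miRNAs) are short RNAs that bind mRNAs mainly through their seed, bases 2 to 8 from the 5′ end, and lower the output of these mRNAs. The miRNAs described here are known for targets that write marks on chromatin. The miR-26 and miR-101 families target Ezh2, the methyltransferase subunit of the Polycomb complex that silences genes through histone H3. The miR-148 family, which includes miR-152, targets Dnmt1, the enzyme that copies DNA methylation after replication. Each hairpin precursor yields a guide arm, which is loaded for silencing, and a passenger arm, which is mostly degraded. The guide arm is the 5p arm in miR-26 and the 3p arm in miR-101, miR-148 and miR-152.

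The mature sequences of all 11 member names were taken from RefSeq (mouse assembly GRCm38.p6). The guide arms are printed because they show how alike the members of a family are, with bases 2 to 8 in capitals. These are the same letters in all members of miR-26 and of miR-148 and miR-152, and differ among the miR-101 members as listed.
mmu-miR-26a-5p: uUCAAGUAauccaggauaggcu
mmu-miR-26b-5p: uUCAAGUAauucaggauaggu
mmu-miR-101a-3p: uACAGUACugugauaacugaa
mmu-miR-101b-3p: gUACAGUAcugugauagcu
mmu-miR-101c: aCAGUACUgugauaacuga
mmu-miR-148a-3p: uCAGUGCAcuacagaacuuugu
mmu-miR-148b-3p: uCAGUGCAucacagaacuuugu
mmu-miR-152-3p: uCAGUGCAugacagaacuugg
The passenger arms are printed because the member with the largest ratio and the member with the clearest opposite direction are among them.
mmu-miR-26a-2-3p: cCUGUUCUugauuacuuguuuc
mmu-miR-26b-3p: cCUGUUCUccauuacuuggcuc
mmu-miR-148a-5p: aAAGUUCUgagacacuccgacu

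Within each family the sequences were nearly the same. Counted from the 5′ end of the first miRNA named, miR-26a-5p and miR-26b-5p differed by C11U and C21U over 21 bases. The differences between miR-148a-3p and miR-148b-3p were C9U and U10C, and those between miR-148a-3p and miR-152-3p were C9U, U10G and U20G. In miR-101 the listed 5′ ends were shifted against each other. The letters ACAGUAC lay at bases 2 to 8 of miR-101a-3p, 3 to 9 of miR-101b-3p and 1 to 7 of miR-101c. Aligned on these letters, miR-101a-3p and miR-101b-3p differed by A16G over 18 bases, and all 19 bases of miR-101c were found in miR-101a-3p. Whether an array probe also binds the other family members was not tested, since the probe sequences were not used here.

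The genes of these miRNAs are spread over the genome. In GRCm38.p6 miR-26b-5p maps to chr1:74394324-74394344 (plus strand), within Ctdsp1. The miR-26a-5p sequence occurs at chr9:119031811-119031832 (plus strand), within Ctdspl, and at chr10:126995543-126995564 (plus strand), within Ctdsp2, so its signal cannot be assigned to one of these genes. The 3 host genes encode related small phosphatases of the RNA polymerase II tail. The passenger arm miR-26a-2-3p (chr10:126995581-126995602) belongs to the Ctdsp2 copy alone. In the third family, miR-148b-3p lies at chr15:103285185-103285206 (plus strand) within Copz1, and miR-152-3p at chr11:96850439-96850459 (plus strand) within Copz2. These hosts encode a pair of paralogous subunits of the coat of Golgi vesicles. The position of miR-148a-3p is chr6:51269829-51269850 (minus strand), within the span of Gm38821. In the miR-101 family, miR-101a-3p lies at chr4:101346957-101346977 (minus strand), within the span of E130102H24Rik, miR-101b-3p at chr19:29135338-29135356 (plus strand), within Rcl1, and miR-101c at chr9:3038680-3038698 (minus strand). Whether a position is exonic or intronic was not read here.

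All 8 guide arm entries had a lower intensity in EPO-MVs than in MSC-MVs, and none of them differed by 1.5-fold, the fold change filter used in the study. The ratios of EPO-MV to MSC-MV lay between 0.759 and 0.937, with a median of 0.845 (n = 8 entries, 1 array per group). Of the 3 passenger arm entries, 1 passed 1.5-fold, miR-148a-5p, which was higher in EPO-MVs. Thus 1 of the 11 members (higher) and 0 (lower) passed the filter, whereas 25.4% of all 831 entries passed it in either direction, 17.8% as higher and 7.58% as lower. Among the 416 brighter entries, those from the median of mean log2 intensity upward, to which all 8 guide arm entries belong, 9.13% passed it in either direction. An intensity below that of MSC-MVs by any amount was frequent, found in 43.9% of all entries, in 55.0% of the brighter entries and in 131 of the 208 brightest (63.0%), to which 6 of the 8 guide arm entries belong.

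**Figure D1:**
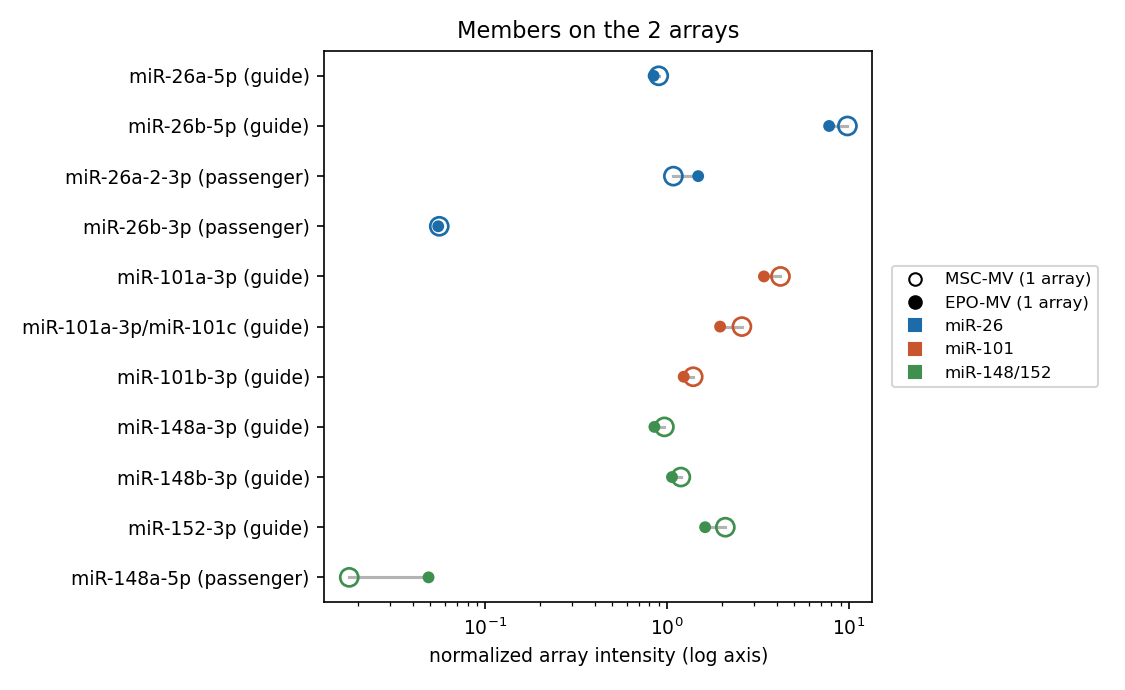
Normalized intensity (log axis) of the 11 members on the MSC-MV array (open circles) and the EPO-MV array (filled points), coloured by family, with 1 array per group and no error bars. The filled point lies left of the open circle for all 8 guide arms, by 0.937-fold for miR-26a-5p to 0.759-fold for the entry shared by miR-101a-3p and miR-101c, and right of it for miR-26a-2-3p and miR-148a-5p.

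Intensities are given as deposited, normalized by the authors and on a linear scale. Before normalization every value was a whole number of steps, a step being the smallest value of its array, and a normalized intensity of 1 stood for 471 steps on the array of EPO-MVs and 447 on that of MSC-MVs. The brightness of a spot also depends on its probe, so intensities of different miRNAs are not compared as amounts.

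In the miR-26 family, the guide arm of miR-26b was the brightest member on both arrays. The intensity of mmu-miR-26b-5p was 9.80 in MSC-MVs and 7.77 in EPO-MVs (4381 and 3661 steps), a ratio of 0.793. For mmu-miR-26a-5p it was 0.899 in MSC-MVs and 0.843 in EPO-MVs (402 and 397 steps), a ratio of 0.937. These guide arms share the seed UCAAGUA and their ratios differed 1.18-fold from each other. In steps, before normalization, the ratio of miR-26a-5p was 0.988.

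Of the passenger arms of miR-26, miR-26a-2-3p was higher in EPO-MVs, unlike the guide arms, and miR-26b-3p was nearly equal on both arrays. The intensity of miR-26a-2-3p was 1.08 in MSC-MVs and 1.48 in EPO-MVs (484 and 698 steps), a ratio of 1.37, which is under 1.5-fold. It was the only member among the brighter entries with a higher intensity in EPO-MVs. A ratio at least as high was found in 28 of the 416 brighter entries (6.73%) and in 6 of the 208 brightest (2.88%). For miR-26b-3p, a dim entry, the intensity was 0.0559 in MSC-MVs and 0.0552 in EPO-MVs (25 and 26 steps), a ratio of 0.987. The ratio was below 1 with the deposited values and in 5 of 8 settings in all, from 0.807 with quantile normalization to 1.04 in steps.

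In the miR-101 family, whose best known target is Ezh2, the entry of miR-101a-3p alone had 4.20 in MSC-MVs and 3.41 in EPO-MVs (1877 and 1604 steps), a ratio of 0.811. The entry shared by miR-101a-3p and miR-101c had 2.58 in MSC-MVs and 1.96 in EPO-MVs (1152 and 921 steps), a ratio of 0.759, the lowest of all members. Because miR-101c is contained in miR-101a-3p, both entries can read the same RNA, and they are not independent evidence of a direction. For miR-101b-3p, encoded at another locus, the values were 1.39 in MSC-MVs and 1.23 in EPO-MVs (622 and 581 steps), a ratio of 0.886. All 3 entries were below their MSC-MV value, and none reached 1.5-fold.

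The pair of miR-101a entries is a check on how far a ratio can be repeated on the same arrays. Their ratios differed 1.07-fold. Across all entries, 8 miRNAs had an entry of their own and were also named in a shared entry. Over these 8 pairs the ratios differed by a median of 1.17-fold and by up to 16.4-fold, with the same direction in 6 of the 8. The most different pair was that of miR-299a-5p, whose shared entry had 1 step in MSC-MVs and 19 in EPO-MVs. In 6 of the pairs both were brighter entries, and their ratios differed by a median of 1.11-fold and by up to 1.46-fold, with the same direction in 4 of the 6. This median is 0.15 on the log2 scale. It is not independent of the members, since the miR-101a pair, at 0.10, is among these 6 pairs. With the deposited values the log2 ratio of miR-26a-5p, -0.09, was smaller in size and those of the other guide arm entries, -0.16 to -0.40, were larger. Against the next larger pair, that of miR-28a-5p at 0.20, miR-148b-3p (-0.16), miR-101b-3p (-0.17) and miR-148a-3p (-0.18) were smaller too. In steps and with quantile normalization, 4 of the 8 were smaller in size than the median of 0.15. The same number was found with scaling to the 75th percentile and with re-centring on the brighter entries, and with lowess 3 were. No guide arm reached the largest difference between such a pair, 0.55 on the log2 scale, and 2 of the 6 pairs use the same shared entry of miR-378. A spread between entries of one array is not the spread between vesicle preparations, which these data do not hold.

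Among the regulators of Dnmt1, mmu-miR-152-3p had 2.09 in MSC-MVs and 1.62 in EPO-MVs (934 and 762 steps), a ratio of 0.774. The guide arm miR-148a-3p had 0.966 in MSC-MVs and 0.851 in EPO-MVs (432 and 401 steps), a ratio of 0.881. For miR-148b-3p the values were 1.19 and 1.06 (532 and 501 steps), a ratio of 0.894. The ratios of miR-148a-3p and miR-148b-3p were nearly equal, and that of miR-152-3p lay 1.14-fold and 1.15-fold below them. Each of the 3 shares the seed CAGUGCA, while their genes lie on different chromosomes.

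The passenger arm miR-148a-5p was the exception in this family and the only member past 1.5-fold. Its intensity was 0.0179 in MSC-MVs and 0.0488 in EPO-MVs (8 and 23 steps), a ratio of 2.73. It was among the 207 dimmest entries, of which 46.4% passed 1.5-fold as higher. With a pseudocount of 0.0573, which exceeds its value on both arrays, the ratio was 1.41. Its guide arm miR-148a-3p, cut from the same precursor, had a ratio of 0.881, and of 0.888 with the pseudocount.

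Arms of one hairpin were compared in ratio, not in level. The ratio of miR-26a-2-3p exceeded that of miR-26a-5p 1.46-fold, and that of miR-26b-3p exceeded that of miR-26b-5p 1.24-fold. For comparison, arms were paired where their names were alike but for 5p and 3p, and the pair of miR-26a-5p and miR-26a-2-3p was added. Other hairpins with differently built or shared names, such as miR-29b-1-5p with miR-29b-3p, were left out. In these 224 pairs, arms differed by a median of 1.35-fold, and 95 (42.4%) differed at least as much as miR-26a-5p and miR-26a-2-3p. In the 55 pairs with both arms among the brighter entries, the median was 1.24-fold, and 10 (18.2%) differed at least this much. Both counts include the miR-26a pair itself. In all 3 pairs of arms of the families analysed here, the passenger arm had the higher ratio. For miR-26b this order turned with quantile normalization (0.872 and 0.807 for 5p and 3p) and lowess (0.890 and 0.808). The signal of miR-26a-5p can also come from the copy within Ctdspl, so its pair with miR-26a-2-3p is not known to stem from one hairpin. The other passenger arms, such as miR-26a-1-3p, miR-152-5p and those of miR-101, were not analysed here.

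**Figure D2:**
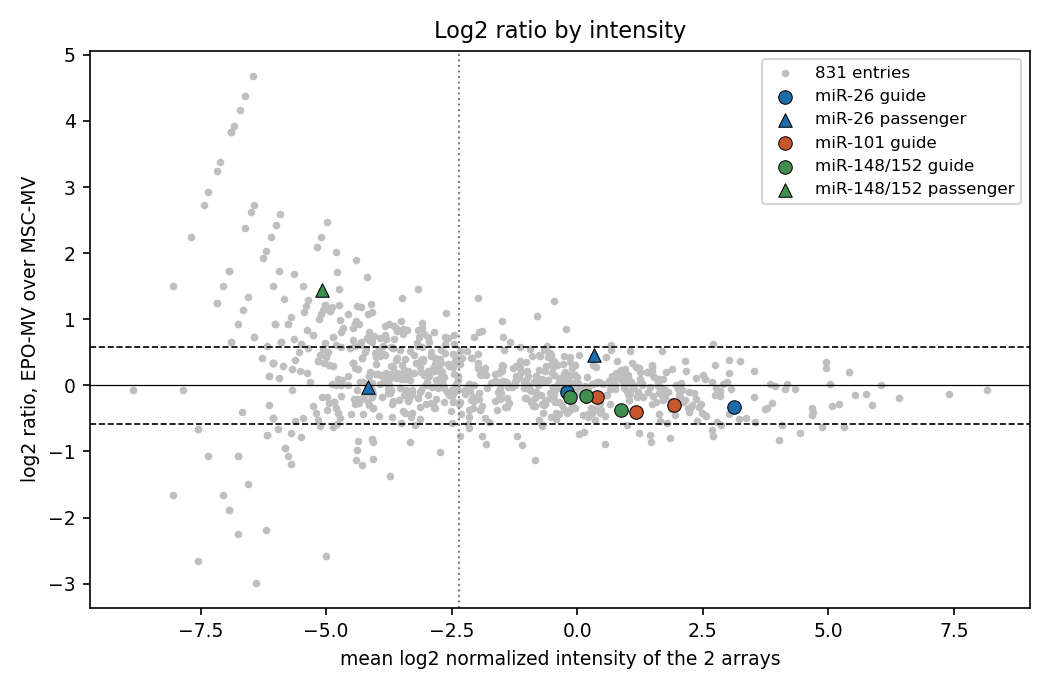
Log2 ratio of EPO-MV over MSC-MV against the mean log2 normalized intensity of the 2 arrays for all 831 entries (grey), with the members coloured by family, guide arms as circles and passenger arms as triangles. Dashed lines mark 1.5-fold and the dotted line the median intensity. The 8 guide arms lie below 0 within 1.5-fold, right of the dotted line, and the triangle above the upper dashed line is miR-148a-5p.

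Compared to entries of like brightness, the guide arms lay below the median ratio without reaching the extremes. Of the 8, 4 lay between the 5th and 25th percentiles of the brighter entries (ratios of 0.657 and 0.834) and 4 between the 25th percentile and the median of 0.972. Their median log2 ratio was -0.24, against -0.04 for the brighter entries, -0.09 for the 208 brightest and 0.05 over all entries. These values are descriptions, since family members share sequence and possibly signal and the split into guide and passenger arms was made with the values known. By family, the median log2 ratio was -0.06 for the 4 entries of miR-26, -0.30 for the 3 of miR-101 and -0.17 for the 4 of miR-148 and miR-152. That of miR-26 was -0.15 with quantile normalization and -0.13 with lowess. Scaling to the 75th percentile and steps, which move the log2 ratio of every entry by one and the same amount, gave -0.0029 and 0.019. The median of miR-101 was -0.14 with quantile normalization, and no order of the families is read from these values. The standard deviation of the log2 ratio among the 8 guide arm entries was 0.11, against 0.35 among the brighter entries.

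The direction of the guide arms was recomputed under other scalings. All 8 stayed below 1 with re-centring on all or on the brighter entries and with scaling to the 75th percentile. They also did with quantile normalization, removal of the lowess trend and in steps before normalization. The pseudocount adds the same amount on both arrays and cannot move a ratio past 1, so it does not test the direction. The highest guide arm ratio in each ranged from 0.905 with re-centring on all entries to 0.988 in steps. The median of all entries itself moved from 0.05 to 0.10 with scaling to the 75th percentile and to 0.13 in steps. In the same scalings between 45.4% and 63.9% of the brighter entries lay below 1. No guide arm passed 1.5-fold in any of them.

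**Figure D3:**
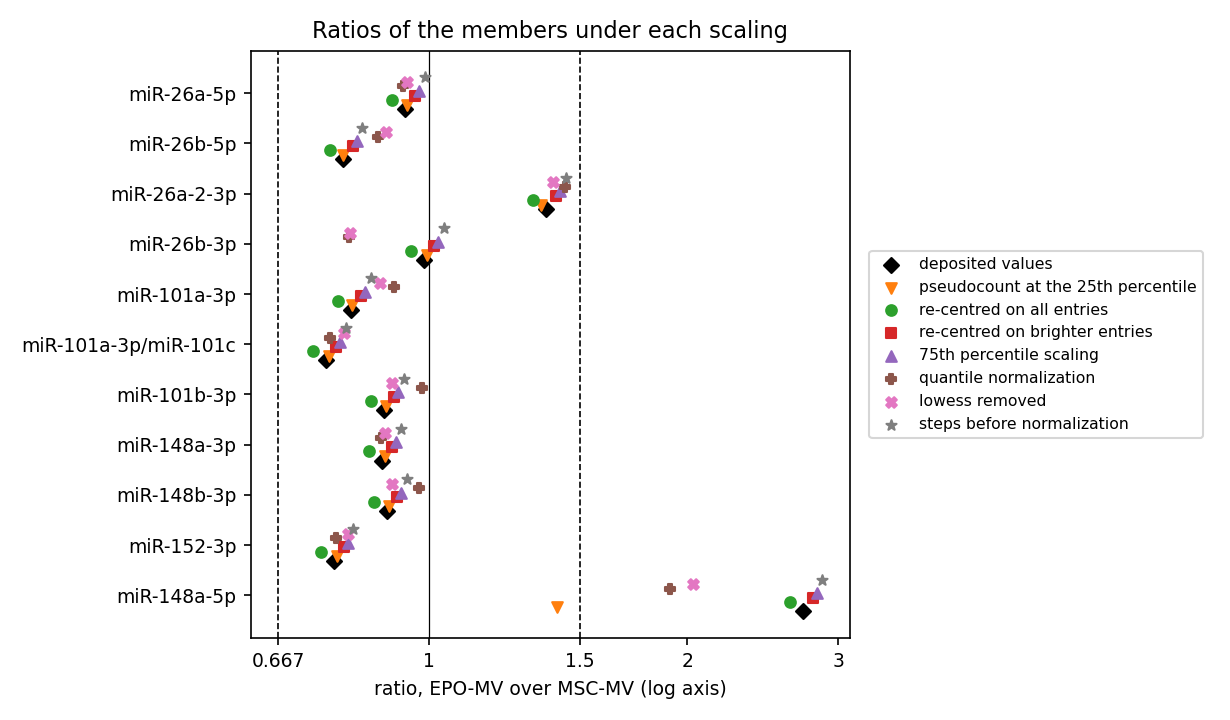
Ratio of EPO-MV over MSC-MV (log axis) of each member with the deposited values (black diamonds) and under 7 other scalings, with dashed lines at 1.5-fold in either direction. The 8 guide arms stay between 0.733 and 0.988, miR-26a-2-3p between 1.32 and 1.44, and miR-148a-5p moves from 2.73 to 1.41 with the pseudocount.

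Other miRNAs known to target enzymes of DNA methylation and histone modification were counted from a list of 13 stems. It holds miR-29a, b and c (Dnmt3a and Dnmt3b), miR-22 (Tet2), miR-138, miR-214 and miR-124 (Ezh2) and miR-137 (Kdm1a and Ezh2). It also holds miR-140, miR-1a and miR-206 (Hdac4), miR-34a (Sirt1) and miR-449a (Hdac1), of which miR-449a was not analysed here. Of the 26 entries found, 4 passed 1.5-fold as lower and 0 as higher, where 7.58% and 17.8% of all entries did. The intensity of miR-29a-3p was 21.5 in MSC-MVs and 12.1 in EPO-MVs (ratio 0.563), and that of miR-34a-5p was 8.14 and 5.12 (ratio 0.629). The other 2 were the dim passenger arms miR-29b-2-5p, with 19 steps in MSC-MVs and 13 in EPO-MVs, and miR-206-5p, with 13 and 8. The median log2 ratio of the list was -0.12, and -0.18 for the 16 that were brighter entries. Among the miRNAs that share Ezh2 as a target with miR-26 and miR-101, miR-214-3p had a ratio of 0.744, miR-138-5p of 0.949 and miR-124-3p of 1.29. The last 2 are dim entries, with 53 steps on both arrays for miR-138-5p, and 73 in MSC-MVs and 99 in EPO-MVs for miR-124-3p.

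Marker miRNAs of cell types were read as context for the origin of the MVs. Since brightness depends on the probe, these values are not amounts and do not settle the origin. The 6 stromal markers found, of 8 listed, were all among the 208 brightest entries, with 2008 to 40369 steps in MSC-MVs and 1558 to 37150 in EPO-MVs. Their summed intensity was 172 in MSC-MVs and 135 in EPO-MVs. All 6 were lower in EPO-MVs, with ratios from 0.648 for miR-143-3p to 0.873 for miR-21a-5p. Of them miR-143-3p passed 1.5-fold as lower, as did 16 of the 208 brightest entries. All 6 markers of blood cells were also brighter entries, with a summed intensity of 79.9 in MSC-MVs and 67.6 in EPO-MVs. Of these, miR-142-3p, miR-142-5p, miR-451a and miR-150-5p had ratios of 0.900, 0.921, 0.902 and 1.36. The ratio of miR-223-3p was 0.659, past 1.5-fold as lower (9245 steps in MSC-MVs and 6415 in EPO-MVs). That of miR-144-3p was 1.75, past 1.5-fold as higher (87 and 160 steps). The summed intensity of the 8 guide arm entries was 23.1 in MSC-MVs and 18.7 in EPO-MVs. The markers of epithelium (4 found of 5), liver (1) and neurons (1) were dimmer entries, with 6 to 99 steps in EPO-MVs. Of the epithelial markers, miR-200b-3p, miR-200c-3p and miR-141-3p passed 1.5-fold as higher, with ratios of 1.50, 2.85 and 1.90, and miR-429-3p had 0.712. In this order they had 43, 6, 16 and 8 steps in MSC-MVs and 68, 18, 32 and 6 in EPO-MVs. All but miR-200b-3p were among the 207 dimmest entries, of which 46.4% passed 1.5-fold as higher. The entry of miR-200b-3p was among the next 208, of which 39 did. The summed intensity of the 4 epithelial markers was 0.163 in MSC-MVs and 0.263 in EPO-MVs. The part that blood cell or epithelial miRNAs have in the values of the members was not tested. The intensities of all entries summed to 2147 in MSC-MVs and 1957 in EPO-MVs.

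Short motifs linked to the sorting of miRNAs into vesicles were looked up in the mature sequences of 680 entries, on the RNA strand alone. The letters GGAG were found in 0 of the 11 members and in 12.4% of the entries. The letters GGCU were found in 2 members, miR-26a-5p and miR-26b-3p, and in 11.5% of the entries. The guanine and cytosine content of the guide arms had a median of 40.9% (33.3% to 47.6%), against 50% over the 680 entries.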

How the data were processed

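MV RNA was labelled with Hy3, hybridized to the miRCURY LNA Array (v.18.0), scanned with an Axon GenePix 4000B and read with GenePix Pro 6.0. As the methods state, the authors averaged replicate spots, derived a factor from miRNAs with an intensity of at least 30 on each array, and normalized by the median. The deposited intensity is linear and above 0 for all 831 entries; background correction is not given in the sources used here. Number of arrays, 1 per group, limits the precision.

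Ratios were formed without a filter or pseudocount, and counted past 1.5-fold. Entries were ordered by brightness, the mean log2 intensity of both arrays. All 1662 values were whole steps within 0.0001. Every member was named. Members, gene lists and markers were chosen with earlier results of these data known. A total of 11 alternatives was planned and 1, the steps, was added after the values were seen. Lowess used a fraction of 0.4 and 3 robustness iterations. Counting was tested on simulated data. Python 3.11.15, pandas 2.3.3, numpy 2.4.6, statsmodels 0.14.6 and matplotlib 3.10.9 were used.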

Additional observations from a re-analysis of the deposited data

How the results depend on the processing

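The count of members past 1.5-fold, 1 with the deposited values, was 6 at a threshold of 1.2 (2 higher, 4 lower) and 0 with the pseudocount, among entries above the median intensity, and with at least 30 or at least 60 steps on both arrays, since these filters leave out miR-148a-5p. Over all entries, 211 with the deposited values, the count was 88 at a threshold of 2, 460 at 1.2, 54 with the pseudocount, 38 above the median intensity, and 62 and 40 with at least 30 and 60 steps. Of these, 70.1% were higher in EPO-MVs with the deposited values, 53.7% with the pseudocount, 48.9% with lowess, and 34.2%, 54.8% and 37.5% with the filters, and 95 were higher and 95 lower with quantile normalization. For the other miRNAs with such targets, 4 became 0 at a threshold of 2, 13 at 1.2, and 2 with the pseudocount and with each of the 3 filters. The median log2 ratio of miR-101 was -0.14 with quantile normalization and -0.19 with lowess, and the cause was not tested. That of miR-26 was 0.019 in steps, which by construction raise the log2 ratio of every entry alike (the median of all entries went from 0.05 to 0.13). Of 77 recomputed member ratios, 76 kept their side of 1.5-fold, the exception being miR-148a-5p with the pseudocount. No paired analysis was possible because each group had 1 array. No background values were used here, so no entry can be called above background.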
